A study of Bos taurus with 4 samples.

Results

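The genes described here encode the extracellular matrix and the enzymes that build and degrade it, in bovine (Bos taurus) embryos of 8 to 16 cells, collected on day 3 after insemination. They were taken by a rule on gene symbols, set when earlier results of these data were known, so the list is not blind to them: collagens, laminin chains, fibulins, fibrillins, thrombospondins, microfibril-associated proteins, lysyl oxidases, prolyl and lysyl hydroxylases of collagen, matrix metalloproteinases (MMP), ADAMTS proteases and tissue inhibitors of metalloproteinases (TIMP), together with 16 single genes such as FN1, SPARC and SERPINH1. Of 149 such symbols in the RefSeq gene table, 101 genes had a row in the deposited expression table, as 103 transcript rows, out of 14002 genes with a symbol in all. The other 48 symbols, among them COL4A2, COL5A1, LAMA1 and LAMA5, were not analysed here. The name fits most but not every member: MFAP1 is a protein of the spliceosome that carries a microfibril name, and MFAP3 and MFAP3L are predicted membrane proteins, so the counts are also given without these 3.

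Polyadenylated RNA was sequenced from whole embryos, with 2 libraries per group. In the NC group zygotes had been injected with negative control siRNAs (small interfering RNAs). In the KDM5_KD group the titles name a Kdm5 knockdown, and the first library's treatment entry names siRNAs against KDM5A, KDM5B and KDM5C, demethylases of histone H3 lysine 4. The treatment entry of the second knockdown library names KDM6A, KDM6B and KDM6C instead, so its labels disagree, and results are also given without it. The labels do not say how many embryos went into a library, whether the libraries came from separate cultures, or how surrounding cells were removed, so p-values measure only the spread between these libraries. The comparison addresses how transcript levels at this stage differ after KDM5 knockdown.

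The extracellular matrix is the network of secreted proteins to which cells attach. Fibrillar collagens form tensile fibres, whereas type IV collagen, laminins and nidogens form basement membranes, the thin sheets under epithelia. Collagen chains are hydroxylated by P4HA and PLOD enzymes and folded with the chaperone SERPINH1 in the endoplasmic reticulum, then cross-linked outside the cell by lysyl oxidases, and integrins are the main receptors through which cells bind the matrix. In early mammalian embryos laminin and type IV collagen are among the first matrix proteins made, and the cumulus cells around the oocyte secrete a matrix rich in hyaluronan.

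Values are FPKM, fragment counts scaled to transcript length and to sequencing depth, which can be compared between genes because of the scaling to length. The 4 libraries summed to between 283347 and 322267 FPKM, and their absolute depth is unknown. Tests used limma on log2(FPKM + 1) over the 8970 transcripts with a mean of at least 1 FPKM, and a difference below is the KDM5_KD mean minus the NC mean on that scale. KDM5A had 28.4 and 27.1 FPKM in the NC libraries and 10.5 and 10.1 FPKM in the knockdown libraries, a difference of -1.35 (SE 0.142, limma adjusted p of 0.0333). KDM5C had 28.1 and 40.6 and 15.1 and 17.8 FPKM, a difference of -0.999 (SE 0.208, limma adjusted p of 0.123), so these 2 of the 3 named targets were lower in each knockdown library, including the one with conflicting labels. KDM5B, KDM6B and KDM6C were not analysed here. KDM6A had 7.63 and 11.3 and 7.90 and 9.29 FPKM. RNA typical of such embryos was present: the oocyte genes BMP15 (118 and 83.8 FPKM in NC, 149 and 172 FPKM in KDM5_KD) and KPNA7 (110.5 and 99.3 FPKM in NC, 126 and 179 FPKM in KDM5_KD) were abundant and the placental gene PAG2 was listed at 0 in all 4 libraries.

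Most matrix transcripts were higher in the knockdown libraries, but none of them passed the test on its own. Of the 103 rows 61, from 60 genes, passed the filter on low values. Of these 61, 41 (67.2%) were higher in both KDM5_KD libraries than in both NC libraries, against 35.1% of all transcripts tested. In the other direction 5 (8.20%) were lower in both, against 15.6% of all. The median difference of the 61 was 0.85, and that of all transcripts was 0.09. With no filter the median of 99 member rows was 0.51 against 0.07, 58.6% were higher in both knockdown libraries against 33.4% of all, and 25.3% were at least 2-fold higher against 3.25%. At least 2-fold higher values on the log2(FPKM + 1) scale were found for 24 of the 61, against 4.52% of all, and at least 2-fold lower values for 0, against 0.301% of all. At a limma adjusted p under 0.05 there were 0 members in either direction, against a background of 0.19% higher and 0.0892% lower. Without adjustment the same limma fit gave p under 0.05 for 34 members that were higher and 4 that were lower, against 14.3% and 3.12% of all transcripts, and robust eBayes called 3 members higher, FN1, LUM and PLOD1, against 0.412% of all. In bulk RNA, more cells of a type and more RNA per cell cannot be told apart.

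A total of 12 of the 61 members had an NC mean under 1 FPKM and passed the filter only through their knockdown values, so their counts say nothing about direction. They were COL1A2 and COL11A1 of the fibrillar collagens, COL6A1, COL6A2, MFAP2, THBS3, the maturation genes PLOD1, LOXL1, LOXL3 and LOXL4, the protease MMP23, and TIMP3. Of the other 49 members, with an NC mean of at least 1 FPKM, 31 were higher in both knockdown libraries. Of all 8582 such transcripts 2814 were. The 5 members lower in both knockdown libraries were all among these 49. The members with higher levels are therefore given separately, first by their NC mean. At an NC mean of 5 FPKM or more, 10 of 20 members (50%) were higher in both knockdown libraries and 4 (20%) lower. Over all transcripts there these shares were 26.6% and 19.9%, and the median differences were 0.14 for members and 0.03 for all. At an NC mean of 1 to 5 FPKM, 21 of 29 members (72.4%) were higher in both, against 46.5% of all. The groups below are by the mean over all 4 libraries, which includes the knockdown values. Of the 13 members at 20 FPKM or more, 9 were higher in both knockdown libraries and 3 were lower in both, with a median difference of 0.46. All 2979 transcripts at that level had a median of -0.01, and 22.1% of them were higher and 23.9% lower in both. Of the 15 members between 5 and 20 FPKM, 9 were higher in both (36.3% of all at that level), with a median of 0.67 against 0.11.

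The control libraries differed from each other on these genes, and the counts depended on them. In 49 of the 61 members NC replicate 1 exceeded NC replicate 2 (80.3%, against 55.8% of all transcripts). For 35 members (57.4%, against 23.3%) the order was NC replicate 2, then NC replicate 1, then both knockdown libraries. With NC replicate 2 as the only control 19 members passed at a limma adjusted p under 0.05, all of them higher, against 3.6% of all transcripts (323 of 8970), and the median difference was 1.13 against 0.09. With NC replicate 1 as the only control 2 passed, SERPINH1 and THBS1, against 0.334% of all, and the median was 0.51 against 0.10, with 14 members at least 2-fold higher against 2.79% of all. These fits assume that the lone control varies as the other group does. Without KDM5_KD replicate 2, the library with conflicting labels, the median was 0.96 against 0.07 and 0 members passed in limma, and without KDM5_KD replicate 1 it was 0.80 against 0.12 and 0 passed. At an unadjusted p under 0.05 these 2 fits had 30 and 26 members that were higher, against 7.41% and 11.4% of all, and 2 and 1 that were lower, against 1.17% and 1.46%.

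**Figure D1:**
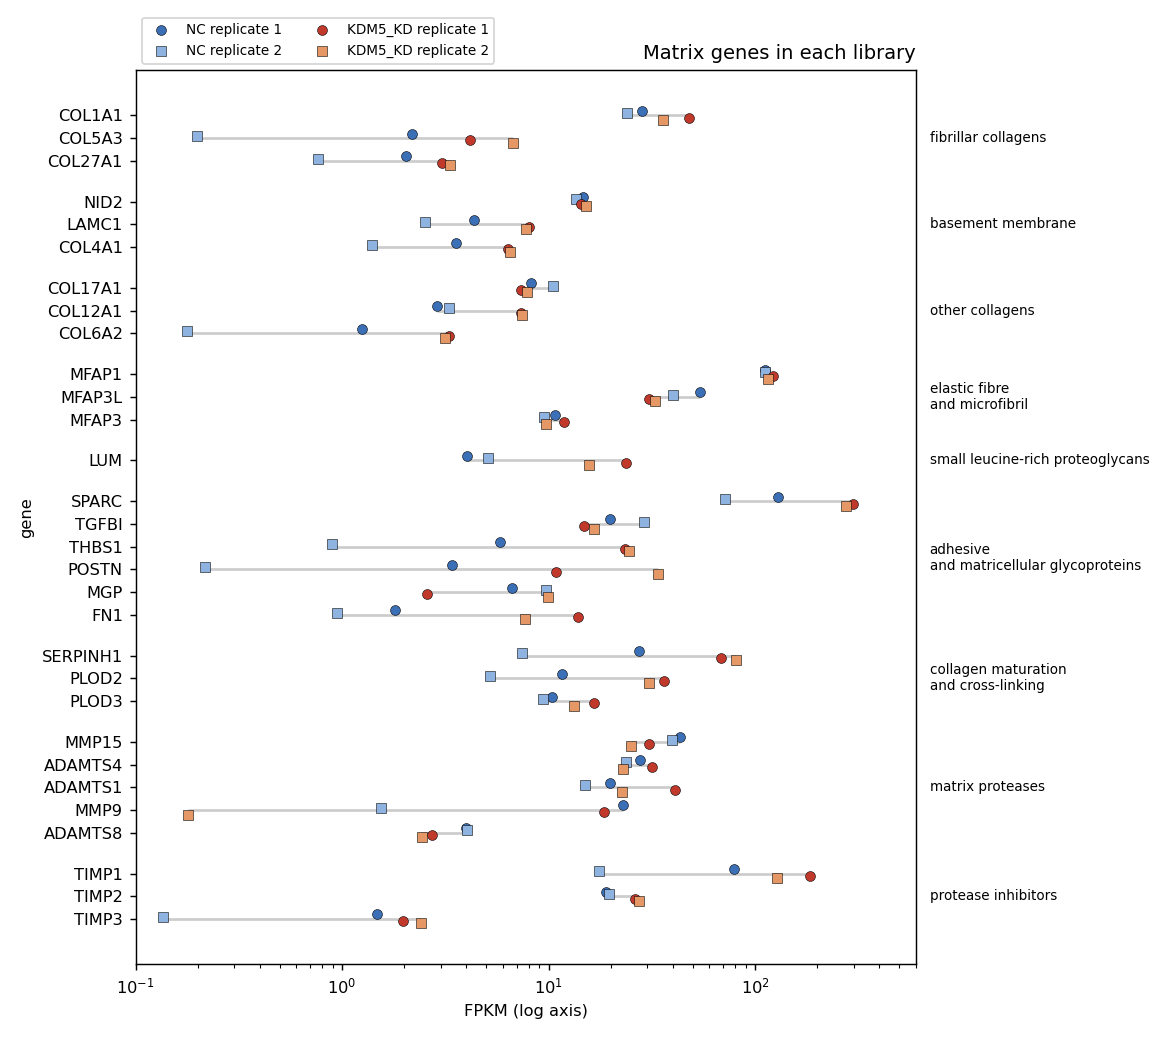
FPKM (log axis) of the matrix transcripts named by rule, by role, with 1 point for each of the 4 libraries and a grey line from the lowest to the highest. For THBS1, SERPINH1, TIMP1 and POSTN the 2 NC libraries lie far apart, with NC replicate 2 lowest, whereas for LUM and COL12A1 the NC libraries lie close together and below both knockdown libraries.

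Among the fibrillar collagens, 4 of the 7 transcripts tested were higher in both knockdown libraries (57.1%, against 35.1% of all). The other 3 overlapped between groups, and the median difference was 0.86. COL1A2 and COL11A1 passed the filter only through their knockdown values, and 3 of the other 5 were higher in both. COL1A1 (NM_001034039), the alpha1 chain of type I collagen, was the most abundant collagen, at 28.4 and 23.9 FPKM in NC and 47.7 and 35.8 FPKM in KDM5_KD. The groups did not overlap, and the difference was 0.64 (SE 0.182, limma adjusted p of 0.175). COL1A2 (NM_174520), its partner alpha2 chain, was far lower, at 0.359 and 0.694 FPKM in NC and 4.32 and 2.02 FPKM in KDM5_KD, a difference of 1.40 (SE 0.319, limma adjusted p of 0.133). COL5A3 (NM_001205624), a chain of type V collagen that helps to set fibre diameter, was at 2.18 and 0.199 FPKM in NC and 4.17 and 6.70 FPKM in KDM5_KD. NC replicate 2 was the low library here, and the difference was 1.69 (SE 0.478, limma adjusted p of 0.175). COL27A1 (NM_001206680), a chain found in cartilage, showed the same order at 2.04 and 0.761 FPKM in NC and 3.04 and 3.34 FPKM in KDM5_KD, a difference of 0.86 (SE 0.301, limma adjusted p of 0.234). COL3A1, COL11A1 and the tested row of COL2A1 had overlapping groups and differences of 0.99, 0.73 and -0.36. That row of COL2A1 was at 1.81 and 1.58 FPKM in NC and 0.452 and 2.02 FPKM in KDM5_KD. In its low library, KDM5_KD replicate 1, the untested row of COL2A1 was at 1.69 FPKM. The sign of the tested row need not be that of the gene.

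Basement membrane genes were mostly higher in the knockdown libraries, apart from NID2. COL4A1 (NM_001166511), a chain of type IV collagen, was at 3.55 and 1.40 FPKM in NC and 6.38 and 6.53 FPKM in KDM5_KD. The knockdown libraries were close to each other and above both controls, with a difference of 1.17 (SE 0.326, limma adjusted p of 0.171). LAMC1 (NM_001206817), the gamma1 chain shared by most laminins, was at 4.38 and 2.52 FPKM in NC and 8.00 and 7.81 FPKM in KDM5_KD, a difference of 1.03 (SE 0.253, limma adjusted p of 0.146). The beta chains LAMB1 (2.71 and 1.44 FPKM in NC, 6.15 and 7.11 FPKM in KDM5_KD) and LAMB2 (2.04 and 0.778 FPKM in NC, 3.58 and 2.46 FPKM in KDM5_KD) had differences of 1.34 (SE 0.262, limma adjusted p of 0.109) and 0.77 (SE 0.318, limma adjusted p of 0.289). Neither overlapped between groups, so 4 of the 5 tested members of the class were higher in both knockdown libraries (80%, against 35.1% of all). NID2 (NM_001102065), a nidogen that links laminin to type IV collagen, was the most abundant of the 5 and overlapped, at 14.6 and 13.5 FPKM in NC and 14.3 and 15.2 FPKM in KDM5_KD. Its difference of 0.06 had the opposite sign under median-ratio scaling, quantile normalization and a common sum. NID1, the other nidogen, was under the filter and was the only untested member lower in both knockdown libraries, at 1.01 and 0.503 FPKM in NC and 0.112 and 0.183 FPKM in KDM5_KD.

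The remaining collagens divided by type. COL12A1 (NM_001206497), which coats collagen fibres, was at 2.89 and 3.30 FPKM in NC and 7.37 and 7.45 FPKM in KDM5_KD. Here NC replicate 1 was not above NC replicate 2, every knockdown value was between 2.23 and 2.58 times every control value, and the difference was 1.04 (SE 0.188, limma adjusted p of 0.107). COL6A2 (NM_001075126), a chain of the beaded filaments of type VI collagen, was at 1.25 and 0.178 FPKM in NC and 3.29 and 3.17 FPKM in KDM5_KD, a difference of 1.38 (SE 0.333, limma adjusted p of 0.144). COL6A1, its partner chain, was at 1.33 and 0.339 FPKM in NC and 3.51 and 2.55 FPKM in KDM5_KD, a difference of 1.18 (SE 0.318, limma adjusted p of 0.165). COL17A1 (NM_001101980), a transmembrane collagen of epithelial anchoring structures, was the only collagen tested with both knockdown libraries below both controls, at 8.25 and 10.5 FPKM in NC and 7.36 and 7.88 FPKM in KDM5_KD. That difference was small against the spread, at -0.26 (SE 0.191, limma adjusted p of 0.532).

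In the elastic fibre class 5 of 7 transcripts (71.4%) were higher in both knockdown libraries and 1 (14.3%) was lower in both, against 35.1% and 15.6% of all. MFAP2 passed the filter only through its knockdown values, and the 3 most abundant members of the class were MFAP1, MFAP3L and MFAP3. MFAP1 was at 112 and 112 FPKM in NC and 122 and 116 FPKM in KDM5_KD, a difference of 0.09 (SE 0.109, limma adjusted p of 0.731) whose sign flipped with median-ratio scaling and the common sum. MFAP3L was at 54.1 and 39.9 FPKM in NC and 30.8 and 32.8 FPKM in KDM5_KD, a difference of -0.54 (SE 0.174, limma adjusted p of 0.210), and MFAP3, at 10.7 and 9.52 FPKM in NC and 11.9 and 9.77 FPKM in KDM5_KD, overlapped, with a difference of 0.08 that flipped under all 3 scalings. The other 4 are components of elastic fibres, and all lay above the controls in both knockdown libraries. FBN1, the fibrillin that forms the microfibril scaffold, was at 1.44 and 0.668 FPKM in NC and 3.22 and 4.25 FPKM in KDM5_KD, and MFAP2, which binds it, at 0.702 and 0.621 FPKM in NC and 2.33 and 3.60 FPKM in KDM5_KD. ELN, the elastin gene, was at 4.67 and 3.01 and 5.01 and 8.54 FPKM, and FBLN5, a fibulin needed to assemble elastin, at 1.40 and 1.18 and 2.34 and 3.67 FPKM, in the same order. The 4 differences lay between 0.67 and 1.24, with limma adjusted p between 0.109 and 0.323. Leaving out MFAP1, MFAP3 and MFAP3L, 40 of 58 members (69.0%) were higher in both knockdown libraries, 4 were lower in both, and the median difference was 0.87.

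LUM (NM_173934), which encodes lumican, a small leucine-rich proteoglycan that binds collagen fibrils, had the smallest adjusted p of all members. Its level was 4.02 and 5.12 FPKM in NC and 23.8 and 15.6 FPKM in KDM5_KD. Both knockdown libraries were at least 3.05 times either control, NC replicate 1 was the lowest library, and the difference was 1.87 (SE 0.246, limma adjusted p of 0.0610). Robust eBayes gave LUM a limma adjusted p of 0.0360, and over its 15 alternatives it ranged from 0.0360 to 0.249. Its relatives DCN (0.199 and 0.727 FPKM in NC, 0.652 and 1.95 FPKM in KDM5_KD) and BGN, at most 0.0745 FPKM in any library, were under the filter.

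The adhesive and matricellular glycoproteins held the most abundant member and the largest differences. SPARC (NM_174464), which encodes osteonectin, a secreted collagen-binding protein that modulates cell attachment, was at 129 and 71.9 FPKM in NC and 297 and 276 FPKM in KDM5_KD. It was the highest matrix transcript in each library except NC replicate 2, where MFAP1 was higher, and its knockdown values were between 2.13 and 4.13 times the control values. The difference was 1.56 (SE 0.265, limma adjusted p of 0.101). FN1 (NM_001163778), the fibronectin gene, whose product is bound by integrins at the cell surface, was at 1.81 and 0.944 FPKM in NC and 13.8 and 7.66 FPKM in KDM5_KD. Every knockdown value was at least 4.24 times every control value, and the difference was 2.28 (SE 0.329, limma adjusted p of 0.0826), or a limma adjusted p of 0.0439 with robust eBayes, in a range from 0.0269 to 0.249 over its alternatives. THBS1 (NM_174196), thrombospondin 1, which can activate latent TGF-beta, was at 5.85 and 0.893 FPKM in NC and 23.4 and 24.5 FPKM in KDM5_KD, a difference of 2.79 (SE 0.559, limma adjusted p of 0.114). POSTN (NM_001040479), periostin, had the largest difference of all members and also a wide spread within both groups, at 3.39 and 0.217 FPKM in NC and 10.9 and 33.9 FPKM in KDM5_KD. Its difference was 3.14 (SE 0.718, limma adjusted p of 0.133).

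SPP1, which encodes the integrin ligand osteopontin, and THBS3 also lay higher in both knockdown libraries, with differences of 1.11 and 0.72. TGFBI (NM_001205402), an integrin-binding protein induced by TGF-beta, went the other way, at 19.8 and 28.9 FPKM in NC and 14.8 and 16.7 FPKM in KDM5_KD. Its groups did not overlap, and the difference was -0.58 (SE 0.209, limma adjusted p of 0.247). MGP (NM_174707), an inhibitor of calcification, had a single low library, KDM5_KD replicate 1, with 6.66 and 9.67 FPKM in NC and 2.58 and 9.96 FPKM in KDM5_KD, and its difference of -0.53 turned to 0.28 without that library. CCN1 and CCN2, matricellular genes that respond to YAP signalling, overlapped, with differences of 0.28 and 0.19. In the class 6 of 10 transcripts (60%) were higher in both knockdown libraries and 1 (10%) was lower in both, against 35.1% and 15.6% of all. The median of the class was 0.91, and THBS3 passed the filter only through its knockdown values.

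Genes of collagen maturation and cross-linking were higher in both knockdown libraries for 11 of the 12 transcripts tested (91.7%, against 35.1% of all). The median difference was 1.02. Of the 12, PLOD1, LOXL1, LOXL3 and LOXL4 passed the filter only through their knockdown values, and the other 8 were all higher in both. For all 12, NC replicate 1 was above NC replicate 2. SERPINH1 (NM_001046063), the collagen chaperone HSP47, was at 27.3 and 7.40 FPKM in NC and 68.3 and 80.9 FPKM in KDM5_KD. NC replicate 2 was the low library, and the difference was 2.29 (SE 0.523, limma adjusted p of 0.133). PLOD2 (NM_001101149), a lysyl hydroxylase acting on collagen telopeptides, was at 11.6 and 5.23 FPKM in NC and 36.2 and 30.8 FPKM in KDM5_KD, a difference of 1.96 (SE 0.331, limma adjusted p of 0.101). PLOD1, the lysyl hydroxylase of the triple helix, was at 1.16 and 0.664 FPKM in NC and 4.93 and 4.65 FPKM in KDM5_KD, a difference of 1.61 (SE 0.223, limma adjusted p of 0.0760), and PLOD3 (NM_001193255), which also glycosylates hydroxylysine, was at 10.4 and 9.38 FPKM in NC and 16.5 and 13.3 FPKM in KDM5_KD, a difference of 0.54 (SE 0.178, limma adjusted p of 0.212).

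The prolyl 4-hydroxylase subunits, which stabilise the collagen triple helix, also lay higher in both knockdown libraries. P4HA1 was at 3.46 and 3.45 FPKM in NC and 7.20 and 8.33 FPKM in KDM5_KD, with nearly equal controls, and its difference was 0.97 (SE 0.189, limma adjusted p of 0.109). P4HA2 had 2 rows, of which NM_001034293 was at 2.52 and 2.13 FPKM in NC and 6.10 and 8.55 FPKM in KDM5_KD and NM_001159409 at 1.75 and 0.328 and 1.78 and 2.32 FPKM. Reads of P4HA2 may be divided between these rows, and their differences were 1.31 and 0.67. The lysyl oxidase relatives LOXL2, LOXL3 and LOXL4 had differences of 0.85, 1.06 and 1.12 with limma adjusted p between 0.107 and 0.180. LOXL1 was the transcript that overlapped, since KDM5_KD replicate 2 alone was high (0.482 and 0.176 FPKM in NC, 0.328 and 3.73 FPKM in KDM5_KD), and LOX itself was under the filter, at 0.310 and 0.444 and 0.606 and 0.244 FPKM.

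Matrix proteases had a count near that of all transcripts. Of the 12 transcripts tested 4 were higher in both knockdown libraries (33.3%, near the 35.1% of all), 2 were lower in both and 6 overlapped, with a median difference of 0.27. Whether the classes differ from each other was not tested. MMP15 (NM_001191434), a membrane-type metalloproteinase, was the most abundant protease, at 43.1 and 39.5 FPKM in NC and 30.6 and 25.2 FPKM in KDM5_KD. Both knockdown libraries were below both controls, and the difference was -0.55 (SE 0.149, limma adjusted p of 0.164). MMP14, the membrane-type enzyme that activates MMP2, lay the other way, at 16.7 and 19.1 FPKM in NC and 28.2 and 20.7 FPKM in KDM5_KD, a difference of 0.42 (SE 0.189, limma adjusted p of 0.323). ADAMTS1 (NM_001101080), a protease of the proteoglycan versican that acts in the ovulating follicle, was at 19.7 and 15.0 FPKM in NC and 41.1 and 22.7 FPKM in KDM5_KD, a difference of 0.79 (SE 0.294, limma adjusted p of 0.253). The aggrecan-cleaving protease ADAMTS4 (NM_181667) overlapped, at 27.9 and 23.8 FPKM in NC and 31.6 and 22.8 FPKM in KDM5_KD, with a difference of 0.06 that flipped under all 3 scalings. ADAMTS8 (NM_001192325) was lower in both knockdown libraries, at 3.98 and 4.01 FPKM in NC and 2.73 and 2.44 FPKM in KDM5_KD, a difference of -0.48 (SE 0.194, limma adjusted p of 0.284).

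The gelatinases had wide spreads between replicates, MMP9 in both groups and MMP2 in NC only. MMP9 (NM_174744), gelatinase B, was high in replicate 1 and low in replicate 2 of both groups, at 23.0 and 1.55 FPKM in NC and 18.6 and 0.180 FPKM in KDM5_KD. Its difference of -0.70 (SE 1.5) became 1.33 without KDM5_KD replicate 2 and 0.92 without NC replicate 1. MMP2, gelatinase A, had 1 low library, NC replicate 2, with 6.84 and 0.457 FPKM in NC and 5.70 and 4.77 FPKM in KDM5_KD. The interstitial collagenases were little expressed, with MMP1 at most 0.891 FPKM and MMP13 at most 1.47 FPKM in any library, and MMP3, MMP7 and MMP12 were listed at 0 in all 4.

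The TIMP genes encode inhibitors of these proteases, and TIMP1 and TIMP2 were higher in both knockdown libraries. TIMP1 (NM_174471) was the second most abundant secreted matrix gene after SPARC by its mean, at 78.9 and 17.5 FPKM in NC and 186 and 127 FPKM in KDM5_KD. The controls were 4.51-fold apart, the difference was 2.01 (SE 0.636, limma adjusted p of 0.205), and it was 3.06 with NC replicate 2 as the only control. TIMP2 (NM_174472) had controls that were close together, at 18.9 and 19.7 FPKM in NC and 26.3 and 27.5 FPKM in KDM5_KD, a difference of 0.46 (SE 0.134, limma adjusted p of 0.182). TIMP3 (NM_174473), the inhibitor that stays bound to the matrix, passed the filter only through its knockdown values. It was at 1.48 and 0.136 FPKM in NC and 1.97 and 2.42 FPKM in KDM5_KD, a difference of 0.92 (SE 0.384, limma adjusted p of 0.293).

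**Figure D2:**
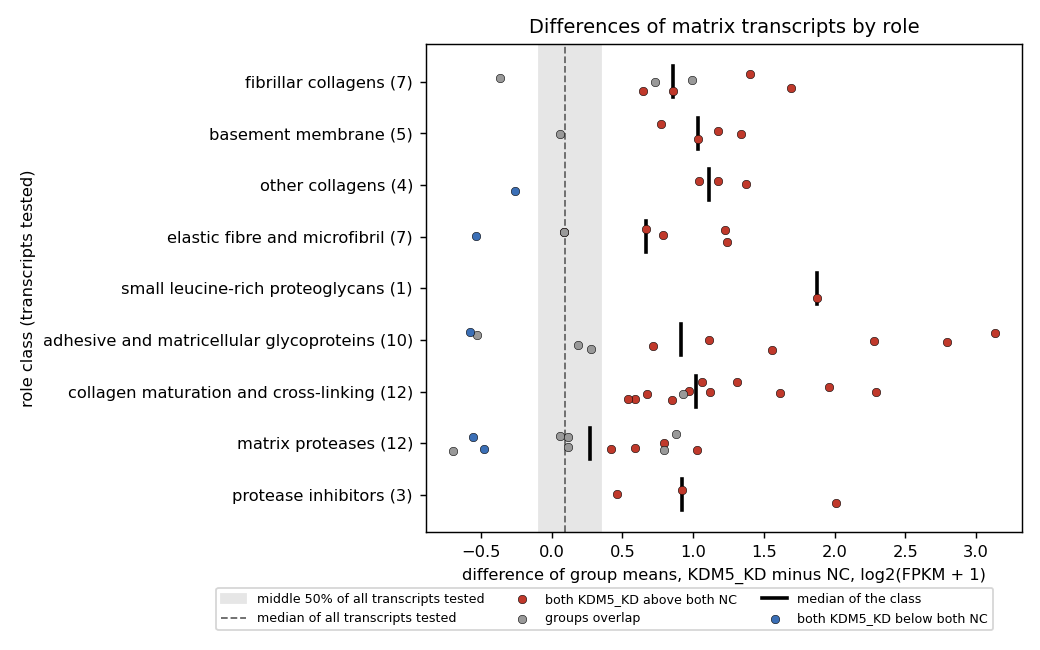
Difference of group means on log2(FPKM + 1), KDM5_KD minus NC, for the 61 matrix transcripts tested, 1 point each, by role, with the class median as a black bar. The dashed line and grey band are the median and the interquartile range of all 8970 transcripts. In the plot 11 of 12 maturation transcripts and 4 of 12 proteases are marked as higher in both knockdown libraries, against 35.1% of all transcripts.

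Chains that assemble with each other were compared within each library, since FPKM are scaled to length. Type I collagen contains more alpha1 than alpha2 chains, and the ratio of COL1A1 to COL1A2 was 79.1 and 34.5 in NC and 11.0 and 17.7 in KDM5_KD. COL1A2 was at only 0.359 and 0.694 FPKM in NC and passed the filter only through its knockdown values. The direction of this ratio between the groups therefore carries no weight. COL6A1 and COL6A2 also passed only through their knockdown values. For type VI collagen the ratio of COL6A1 to COL6A2 was 1.07 and 1.91 in NC and 1.07 and 0.805 in KDM5_KD, and the groups overlapped. The ratio of LAMB1 to LAMC1 was 0.619 and 0.571 in NC and 0.769 and 0.911 in KDM5_KD, which did not overlap, whereas that of LAMB2 to LAMC1, 0.467 and 0.309 in NC and 0.448 and 0.315 in KDM5_KD, did. These ratios were not tested, and they were chosen after the values were seen. No alpha chain that completes a laminin was among the tested members: LAMA4, the only one with a row, was at 0.108 and 0.179 FPKM in NC and 0.146 and 0.182 FPKM in KDM5_KD.

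**Figure D3:**
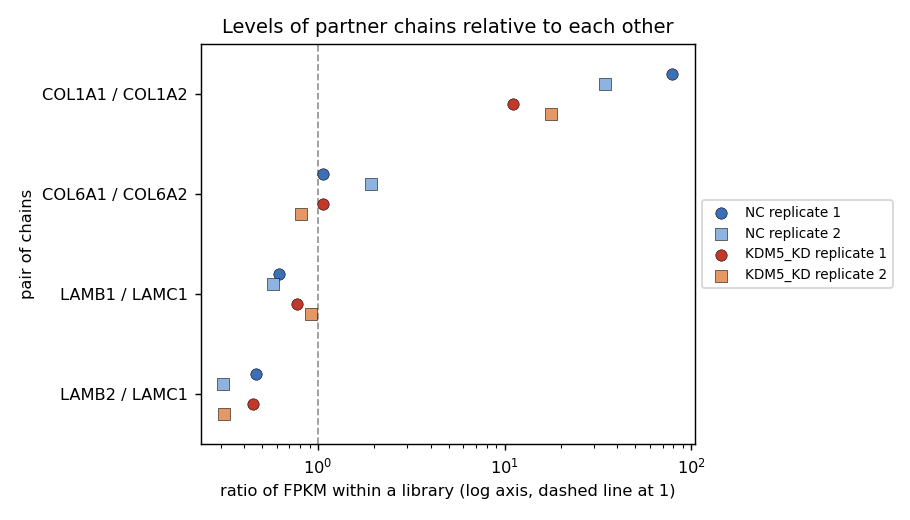
Ratio of FPKM of 2 chains of the same collagen or laminin family within each library (log axis, dashed line at a ratio of 1), 1 point per library. The points of COL1A1 to COL1A2 run from 11.0 to 79.1, with both knockdown libraries lowest, and those of the other 3 pairs lie between 0.309 and 1.91. COL1A2 was at only 0.359 and 0.694 FPKM in NC.

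Low matrix genes made up the rest. The 42 rows under the filter had at most 1.95 FPKM in any library, and 4 of them were listed at 0 in all libraries. In both knockdown libraries 17 (40.5%) were higher and 1 (2.38%) was lower, against 19.6% and 5.62% of all 5547 rows under the filter. These shares are not on an equal footing, because rows at 0 in all 4 libraries are counted but can be neither. Above 0 in some library were 99 of the 103 member rows and 12687 of all 14517 rows. COL18A1, whose product is a basement membrane collagen that contains endostatin, was at 0.303 and 0.108 FPKM in NC and 1.24 and 1.84 FPKM in KDM5_KD, and FBLN1, a fibulin, at 0.535 and 0.209 and 1.19 and 1.78 FPKM. ADAMTS15 had 1 high library, NC replicate 1, with 1.44 and 0.252 FPKM in NC and 0.397 and 0.374 FPKM in KDM5_KD. COL2A1 had 2 rows that divided differently in each library: the untested row, NM_001113224, was at 0.214 FPKM in NC replicate 1 and 1.69 FPKM in KDM5_KD replicate 1 and near 0 in both replicates 2. On either side of the filter, MMP13, LOXL4 and THBS3 had means of 1.09, 1.09 and 1.11 FPKM, and MFAP4, FBLN1 and THBS4 had means of 0.958, 0.929 and 0.917 FPKM.

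Receptors and other genes of the matrix pathway, which are not members, had similar values. Of 30 listed receptor genes 17 were tested, 13 (76.5%) were higher and 1 was lower in both knockdown libraries, against 35.1% and 15.6% of all, and the median difference was 0.88. ITGB1, the beta chain shared by most matrix-binding integrins, was at 26.4 and 19.0 FPKM in NC and 52.4 and 53.0 FPKM in KDM5_KD, a difference of 1.20 (SE 0.178, limma adjusted p of 0.0898). ITGA5, which pairs with it to bind fibronectin, was at 4.63 and 1.71 FPKM in NC and 16.3 and 16.2 FPKM in KDM5_KD, a difference of 2.14 (SE 0.349, limma adjusted p of 0.0970). CD44, the hyaluronan receptor, and SDC1, a heparan sulfate proteoglycan, had differences of 1.24 and 1.49, and GPC4, a glypican, of 0.86. ITGB3, the second most abundant, overlapped at 32.8 and 25.3 FPKM in NC and 28.2 and 24.7 FPKM in KDM5_KD. BCAM and SDC1 passed the filter only through their knockdown values. None of the 17 passed at a limma adjusted p under 0.05. At an unadjusted limma p under 0.05, 11 were higher (64.7%, against 14.3% of all).

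Of 41 listed processing genes and other matrix components 18 were tested. In both knockdown libraries 13 (72.2%) were higher and 1 (5.56%) was lower, against 35.1% and 15.6% of all. The median difference was 0.81, and 0 passed at a limma adjusted p under 0.05. At an unadjusted limma p under 0.05, 11 were higher (61.1%, against 14.3% of all). EFEMP2, LTBP3 and VCAN passed the filter only through their knockdown values. PPIB, a proline isomerase of collagen folding, was the closest to the threshold, at 35.2 and 37.3 FPKM in NC and 69.3 and 70.4 FPKM in KDM5_KD, a difference of 0.93 (SE 0.117, limma adjusted p of 0.0564). Its controls were close together, and so were its knockdown libraries. P3H1 (5.19 and 2.24 FPKM in NC, 9.98 and 12.9 FPKM in KDM5_KD) and CRTAP (5.41 and 6.13 FPKM in NC, 10.5 and 12.2 FPKM in KDM5_KD), which form a prolyl 3-hydroxylation complex with PPIB, had differences of 1.46 (SE 0.336, limma adjusted p of 0.133) and 0.87 (SE 0.183, limma adjusted p of 0.123). TGM2, a transglutaminase, and PCOLCE2, an enhancer of procollagen processing, had differences of 1.55 and 1.52. COLGALT1, a collagen galactosyltransferase, was at 24.5 and 24.0 FPKM in NC and 32.1 and 27.1 FPKM in KDM5_KD, and FURIN, a proprotein convertase, was the gene lower in both, at 49.6 and 39.8 and 36.6 and 39.3 FPKM.

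Markers of other cells moved with the matrix genes in part. The 21 rows of cumulus and granulosa markers summed to 81.4 and 38.0 FPKM in NC and to 159.6 and 179.8 FPKM in KDM5_KD, in the same order of groups as the 103 matrix rows, which summed to 779 and 548 FPKM in NC and to 1268 and 1153 FPKM in KDM5_KD. Of 13 such markers tested 11 were higher in both knockdown libraries (84.6%, against 35.1% of all). GATM and INHA passed the filter only through their knockdown values. The other 2, AMH and TNFAIP6, overlapped, with differences of -0.42 and -0.05. AMH was at 2.77 and 1.12 FPKM in NC and 1.28 and 0.957 FPKM in KDM5_KD. GJA1, the connexin of cumulus gap junctions, passed, rising from 6.53 and 5.27 FPKM in NC to 20.2 and 22.1 FPKM in KDM5_KD. Its difference was 1.69 (SE 0.176, limma adjusted p of 0.0333). VIM, the vimentin gene of mesenchymal cells, was at 35.6 and 8.09 FPKM in NC and 84.6 and 98.1 FPKM in KDM5_KD. It gave 43.8% and 21.3% of the sum of the list in NC and 53.0% and 54.6% in KDM5_KD. Without VIM the list summed to 45.8 and 29.9 FPKM in NC and to 74.9 and 81.6 FPKM in KDM5_KD. The steroidogenic enzyme gene CYP11A1 was at 8.41 and 3.79 and 12.5 and 17.2 FPKM, and INHA, the inhibin alpha chain, at 1.20 and 0.489 and 3.67 and 2.91 FPKM. The other 8 rows of the list were under the filter. FSHR, LHCGR and CYP19A1 were at or near 0, with at most 0.0602 FPKM of CYP19A1, 0.0443 of FSHR and 0.0434 of LHCGR in any library. FOXL2 was at 0.660 and 0.491 FPKM in NC and 1.07 and 1.25 FPKM in KDM5_KD. Besides FOXL2, the low rows PTX3, PTGS2 and FSHR were higher in both knockdown libraries, and AREG, AMHR2, LHCGR and CYP19A1 overlapped. Of the marker list, HAS2 and TNFAIP6 are also matrix genes, and the part of such cells in the matrix differences was not tested.

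The oocyte and maternal RNA markers summed to 605 and 471 FPKM in NC and to 718 and 836 FPKM in KDM5_KD. This sum too was lowest in NC replicate 2 and higher in both knockdown libraries than in NC replicate 1. Of the 14 rows tested 7 were higher in both knockdown libraries (50%, against 35.1% of all), with a median difference of 0.41. The fibroblast and stromal markers summed to 29.9 and 24.2 FPKM in NC and to 36.6 and 29.7 FPKM in KDM5_KD. Of them 4 were tested, with a median of 0.11. In both knockdown libraries 1 (25%), THY1, was higher and 0 were lower, against 35.1% and 15.6% of all, and 3 overlapped. THY1 was at 1.96 and 1.08 FPKM in NC and 6.39 and 2.16 FPKM in KDM5_KD, a difference of 0.96 (SE 0.428, limma adjusted p of 0.320). PDGFRB, under the filter, was also higher in both, with means of 0.381 FPKM in NC and 1.45 FPKM in KDM5_KD. PDGFRA gave most of the sum at 22.3 and 18.8 FPKM in NC and 24.1 and 21.8 FPKM in KDM5_KD, and FAP was listed at 0 throughout. The other 9 fibroblast rows summed to 7.54 and 5.36 FPKM in NC and to 12.5 and 7.91 FPKM in KDM5_KD. The trophectoderm markers summed to 179.9 and 198 FPKM in NC and to 189 and 182 FPKM in KDM5_KD. Of 6 tested, 2 were higher and 2 lower in both (33.3% each, against 35.1% and 15.6% of all). TFAP2C alone gave between 82.9% and 91.9% of the trophectoderm sum. The other 7 rows summed to 18.9 and 16.1 FPKM in NC and to 32.2 and 29.7 FPKM in KDM5_KD. That was the same order of libraries as in the matrix rows, but it rested on KRT8. Among the other tested rows of these 7, TFAP2A was higher in both knockdown libraries, GATA3 was lower in both, and KRT18 and CDX2 overlapped. KRT8, a keratin of simple epithelia, had the largest difference of the list, at 2.86 and 1.10 FPKM in NC and 18.2 and 9.23 FPKM in KDM5_KD, a difference of 2.30 (SE 0.406, limma adjusted p of 0.106). Of 3 primitive endoderm markers tested 2 were higher in both (66.7%, against 35.1% of all). APOA1 was at 7.27 and 2.25 FPKM in NC and 16.8 and 34.1 FPKM in KDM5_KD. GATA4 was at 4.02 and 1.55 and 9.25 and 7.39 FPKM, and HNF4A was at most 0.0258 FPKM. Among blood markers PTPRC and HBB were at most 0.190 FPKM in any library, while HBA, at 31.5 and 5.08 FPKM in NC and 38.3 and 33.1 FPKM in KDM5_KD, had 1 low library, NC replicate 2. The sperm marker list had 1 tested gene, ODF2, with a difference of -0.07, and PRM1 and PRM2 were at most 0.385 FPKM.

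**Figure D4:**
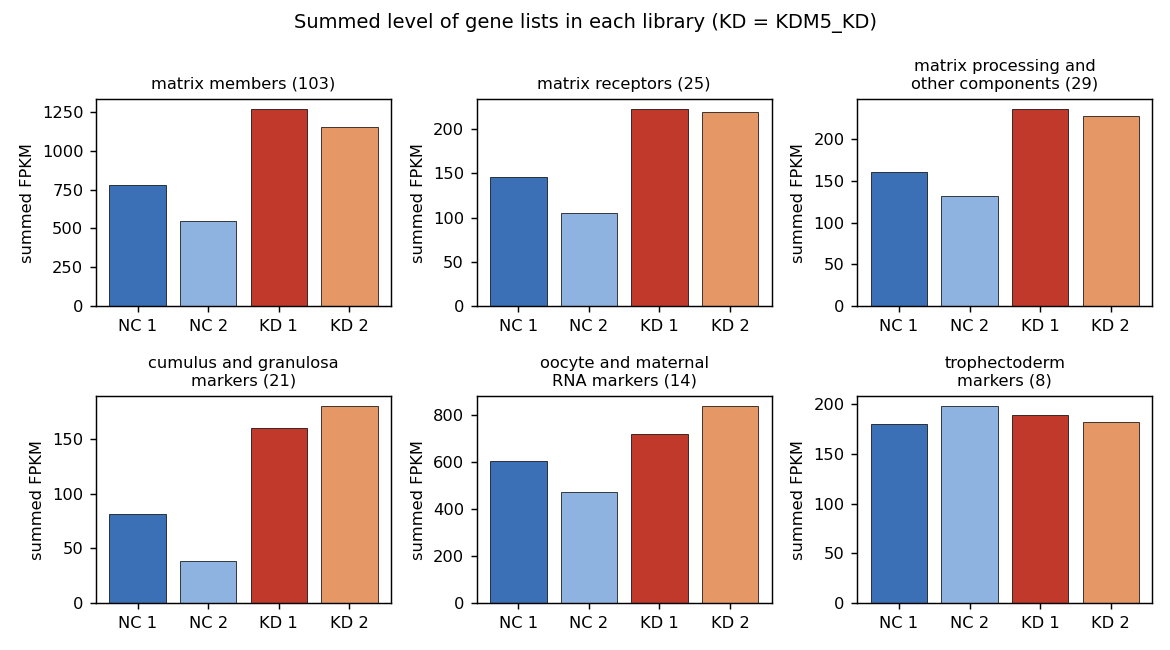
Summed FPKM of 6 gene lists in each of the 4 libraries, with the number of rows in brackets and each vertical axis starting at 0. The matrix, receptor, processing, cumulus and oocyte lists are lowest in NC replicate 2 and higher in both knockdown libraries than in NC replicate 1. The trophectoderm sum, most of it TFAP2C, lies between 179.9 and 198 FPKM with no such order. Without TFAP2C it has that order, which then rests on KRT8.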

How the data were processed

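Polyadenylated RNA of 4 libraries, 2 per group, was measured, and groups and replicate numbers come from the titles. The deposited table gives FPKM for 14517 RefSeq accessions, computed by the authors. The submitters' processing notes name Trimmomatic, HISAT2, featureCounts and Cufflinks without versions. The genome build is not given in the sources used here, so no positions are given. Values reach down to 4.83e-141, so reads may have been apportioned between transcripts, and a listed 0 need not mean absence. Depth is unknown, so no counting intervals are given. Reads of overlapping genes may be shared between rows, as strand is not stated.

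Symbols came from the RefSeq table of ARS-UCD2.0, matched without version, and 14295 accessions matched. Transcripts with a mean of at least 1 FPKM were tested with limma 3.58.1 in R 4.3.3 (lmFit, eBayes with trend, two-sided) on log2(FPKM + 1). This scale understates changes of low transcripts. Adjusted p-values (Benjamini-Hochberg) are over all transcripts tested. The fit was tested on simulated data. Members, role classes, pathway and marker lists were chosen with earlier results of these data known. Named members were those past the threshold, the 3 most abundant of each role class, the 8 largest differences in each direction at a mean of at least 2 FPKM, and the 5 highest untested rows. From each other list those past the threshold, the 3 most abundant and the 3 largest differences could be named. Other genes named to complete a class, complex or pair, and marker rows under the filter, were chosen after their values were seen. Other settings tried were 0.1 as pseudocount, no filter or a mean of at least 5 FPKM, 3 scalings, summing rows by symbol, leaving out microRNA rows, other variance models, a replicate block and leaving out each library. Leaving out MFAP3L beside MFAP1 and MFAP3 was added after the data were seen. Tables and plots were made in Python 3.11.15 (pandas 2.3.3, matplotlib 3.10.9).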

Additional observations from a re-analysis of the deposited data

How the results depend on the processing

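No member passed the threshold as reported, and the number that passed was 0 in either direction under every alternative that keeps all 4 libraries except robust eBayes, with 3 higher (37 of all 8970 transcripts). With single libraries left out it ranged from 0 to 19 higher, and the fits without a control library gave 19 (without NC replicate 1, 323 over all transcripts) and 2 (without NC replicate 2, 30 over all). The number at least 2-fold higher was 37 with a pseudocount of 0.1 (7.97% of all transcripts), 10 with the filter at a mean of 5 FPKM, where 28 members were tested (3.57%), 14 after quantile normalization (2.90%), and from 14 to 34 with single libraries left out (2.79% to 7.13%). The number at least 2-fold lower was 1 with a pseudocount of 0.1 and with a common sum, and 0 to 1 with single libraries left out. With the stricter filter 18 of 28 members were higher in both knockdown libraries, against 29.4% of all. The median difference stayed above that of all transcripts in every alternative, by 0.41 to 1.14. The median over all transcripts, 0.09 as deposited, was -0.01, -0.04 and -0.01 under the median-ratio, quantile and common-sum scalings. The differences of NID2, MFAP1, MFAP3 and ADAMTS4 reversed to -0.043, -0.024, -0.018 and -0.048 with median-ratio scaling and to -0.049, -0.028, -0.024 and -0.054 with the common sum. With quantile normalization NID2, MFAP3 and ADAMTS4 were at -0.070, -0.097 and -0.015. With single libraries left out the ranges were -1.34 to 0.28 for MGP, -2.73 to 1.33 for MMP9, -0.17 to 0.29 for ADAMTS4 and -0.046 to 0.21 for MFAP3. The cause was not tested.

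Same-numbered libraries deviated from their group means with a correlation of 0.229, and no label says that a number marks a shared batch. With the replicate number as a block 0 members passed in either direction. At an unadjusted p under 0.05 in limma 37 of the 61 were higher and 4 lower, against 15.8% and 4.24% of all transcripts. Of 444 comparisons of a named member with an alternative, 410 changed neither sign nor call. Part of this was fixed in advance. Changing only the filter, the variance model, the block or the microRNA rows cannot change a difference, and no named member was called as reported.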

Other observations

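Without MFAP1, MFAP3 and MFAP3L, the matrix rows made up 0.209% and 0.136% of the summed FPKM of NC replicates 1 and 2 and 0.342% and 0.335% of those of KDM5_KD replicates 1 and 2. SPARC and TIMP1 alone gave 34.6% and 23.1% of the matrix sum in NC and 43.7% and 40.5% in KDM5_KD. The ratio of TIMP1 to TIMP2 was 4.17 and 0.888 in NC and 7.06 and 4.62 in KDM5_KD, so NC replicate 2 was the library in which the 2 inhibitors were at near-equal levels. MMP14 and TIMP2, which act together in the activation of MMP2, kept ratios between 0.751 and 1.07 in all 4 libraries. These values were chosen after the data were seen and were not tested.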
